A study of Arabidopsis thaliana with 8 samples.

Results

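The genes described here are those whose transcript signal rose at least 16-fold in flu plants, both in the wild-type background and in plants that overexpress the thylakoid ascorbate peroxidase. A gene belonged to the set when its line mean on the scale log2(signal + 16) was at least 4 higher in flu than in WT Col and at least 4 higher in flu over-tAPX than in over-tAPX. Of 22746 probe sets that are not array controls, 96 (0.422%) met the first threshold, 146 (0.642%) the second and 81 (0.356%) both. Of these 81, 50 had no gene in the annotation table and 2 had several. The remaining 29 named 1 gene each, and 11 of them were left out by name, as the rule sets (the symbols STZ, B120, AT1G53540, AT2G29500 and AT5G51440, and members of named families, namely CML37, CML38, XTH18, GSTU25, UGT73B4 and UGT73B5). This left 18 genes, against 13287 genes that have a probe set of their own on the array. The genes were thus chosen by their responses to flu, and the sizes of these responses are given as a description without a test.

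Expression was measured with Affymetrix ATH1 arrays, where a probe set of short oligonucleotides stands for each transcript, in rosette leaves of 3-week-old Arabidopsis plants raised on soil in continuous light (90, in the unit as labelled, mmol per square metre and second). All 4 lines spent 8 h in darkness and were harvested 2 h after the light came back, so every line, the controls included, had gone through the same dark period and return to light, and no line was sampled without it. The lines were WT Col (genotype Col), flu (a T-DNA insertion mutant of FLU), over-tAPX (1 overexpressor line, 14/2, whose promoter the labels do not name) and flu over-tAPX (the flu mutation together with the overexpressor), with 2 arrays each. Each array carried RNA pooled from 3 of 6 experiments, with at least 10 plants per line in each, so an SD or a p-value here measures the spread between pools. Some free-text sample descriptions conflict with the titles, source names and genotype entries on accession, genotype and minutes of light, and the latter were followed. The TAPX transcript itself read 2836 ± 394 in WT Col and 1693 ± 51.3 in flu (SD, n = 2), against 22501 ± 648 in over-tAPX and 22963 ± 367 in flu over-tAPX, as the transgene labels state.

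FLU is a plastid protein that holds back the synthesis of chlorophyll precursors in the dark. Without it protochlorophyllide accumulates, and when light returns this free pigment passes energy to oxygen and generates singlet oxygen inside the plastid, which is followed by a rapid change of nuclear gene expression, growth arrest and, in older or strongly exposed tissue, cell death. The thylakoid ascorbate peroxidase removes hydrogen peroxide at the photosynthetic membrane, and plants that overexpress it have been used to ask whether hydrogen peroxide alters the response to singlet oxygen. The set of genes holds enzymes, chaperones, a transporter and proteins linked to immunity, and the roles given below are general background.

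The response of the 18 genes to flu averaged between 4.17 and 5.84 log2 units over both backgrounds, with a median of 4.91. Against WT Col the differences ran from 4.07 to 5.87 with a median of 4.70, and in the over-tAPX background from 4.01 to 5.98 with a median of 5.16. On every one of the 4 flu arrays each gene lay above the 40th percentile of that array, which the choice by high flu signals favours. Of the 18, 8 lay under that percentile on all 4 arrays of plants with a functional FLU gene, 7 lay above it on all of them and 3 on some. The lower of both flu arrays exceeded the higher of both WT Col arrays by between 10.3-fold (Hop3) and 153-fold (AT2G22880), with a median of 29.6-fold. In the over-tAPX background the corresponding ratios ran from 12.3-fold (GRX480) to 107-fold (AT2G22880), with a median of 34.4-fold. For the 8 genes under the 40th percentile without flu these ratios are set by background-level readings. The same holds in one background for AT1G69890 (WT Col) and Hop3 (over-tAPX), whose readings in that line lay under it on both arrays. In whole leaves, a change in the share of cells that express a gene and a change in the RNA per cell cannot be told apart.

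**Figure D1:**
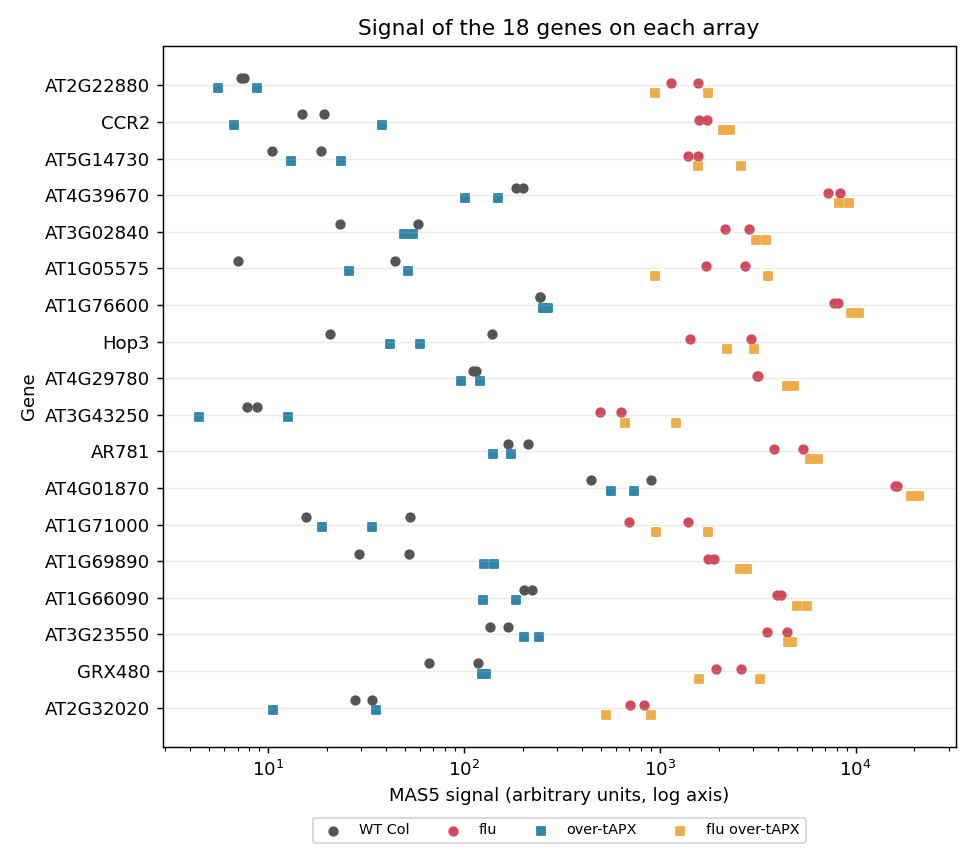
MAS5 signal of each of the 18 genes on each of the 8 arrays (log axis, arbitrary units), 1 point per array, coloured by line. For every gene the 4 flu and flu over-tAPX points lie to the right of all 4 points of the lines with a functional FLU gene. The choice of genes by these responses favours such a separation.

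Among the enzymes, CCR2 encodes a cinnamoyl-CoA reductase, which commits feruloyl-CoA and related thioesters to the monolignol branch that feeds lignin. Its signal was 19.4 and 14.9 on the WT Col arrays, 1588 and 1745 in flu, 38.1 and 6.73 in over-tAPX, and 2284 and 2118 in flu over-tAPX. The 4 readings without flu were low and scattered, and all 4 with flu were higher by far, as the choice of genes favours. The difference was 5.67 against WT Col and 5.98 in the over-tAPX background. AT2G32020, which encodes an acetyltransferase of the GNAT family, averaged 30.8 ± 4.32 in WT Col, 772 ± 91.4 in flu, 23.1 ± 17.6 in over-tAPX and 721 ± 263 in flu over-tAPX (SD, n = 2). Its responses of 4.07 and 4.26 were among the smallest of the set. GRX480 encodes a glutaredoxin of the plant-specific CC type that interacts with TGA transcription factors and acts between salicylic acid and jasmonate signalling. It averaged 92.3 ± 36.1 in WT Col, 2269.7 ± 462 in flu, 127 ± 4.52 in over-tAPX and 2429 ± 1178 in flu over-tAPX. Its response was 4.43 against WT Col and 4.01 in the over-tAPX background, where the flu over-tAPX arrays read 3262 and 1596.

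The set held 2 genes of protein folding. Hop3 encodes a co-chaperone that links HSP70 with HSP90 and is itself inducible by heat and other stresses. Its signal averaged 80.0 ± 83.9 in WT Col, 2190.0 ± 1065 in flu, 50.7 ± 12.4 in over-tAPX and 2611 ± 580.0 in flu over-tAPX. The WT Col arrays alone differed between 139 and 20.7, and the response of 4.78 against WT Col became 3.74 with only the brighter of these and 5.82 with only the dimmer. AT1G71000 encodes a J-domain protein, a class of HSP70 partners. Its means were 34.3 ± 26.3 in WT Col, 1043 ± 493 in flu, 26.5 ± 10.7 in over-tAPX and 1366 ± 578 in flu over-tAPX, a response of 4.42 and 4.98. Arrays of a line differed widely in both chaperone genes. Neither gene had a flu array within the range of the lines with functional FLU, a separation that the choice of genes favours.

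Genes tied to defence and signalling made up another group. AT2G22880 encodes a protein with a VQ motif, the short segment by which such proteins bind WRKY transcription factors. Its signal was 7.51 and 7.28 in WT Col, 1567 and 1147 in flu, 5.54 and 8.80 in over-tAPX, and 1775 and 943 in flu over-tAPX. Its readings without flu were under the 40th percentile of each array, so the size of its response depended on the pseudocount and ranged from 4.26 to 7.34 in the over-tAPX background over 16 alternatives. AT1G66090 encodes a TIR-NBS protein, related to intracellular immune receptors but without their leucine-rich repeats. Its signal was 223 and 204 in WT Col, 3973 and 4167 in flu, 184 and 125 in over-tAPX, and 5007 and 5686 in flu over-tAPX. Replicates of each line lay close together except in over-tAPX, and the response was 4.16 against WT Col and 4.99 in the over-tAPX background.

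AT3G02840 encodes a protein of the armadillo-repeat family and is known as an early gene of the response to elicitors. It read 23.4 and 58.2 in WT Col, 2146 and 2852 in flu, 55.4 and 49.6 in over-tAPX, and 3510.0 and 3102 in flu over-tAPX. Both responses were of like size, 5.53 and 5.60, and both flu over-tAPX arrays lay above both flu arrays. AT4G39670 encodes a member of the glycolipid transfer protein family, whose better-known member ACD11 restrains cell death in Arabidopsis. It read 201 and 186 in WT Col, 7232 and 8350.4 in flu, 149.5 and 101 in over-tAPX, and 9302 and 8203 in flu over-tAPX. The over-tAPX arrays were the lowest, and the ranges of flu and flu over-tAPX overlapped. AT3G23550 encodes a membrane transporter of the MATE family, which exports organic compounds. It read 169 and 135 in WT Col, 4456 and 3528 in flu, 202 and 243 in over-tAPX, and 4715 and 4507 in flu over-tAPX. Its response was 4.57 against WT Col and 4.28 in the over-tAPX background, where the starting level was the higher one.

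For the other 8 genes no firmly known function is given here, except that AT4G01870 encodes a protein related to bacterial TolB. AT5G14730 read 10.5 and 18.8 in WT Col, 1575 and 1390.4 in flu, 23.5 and 13.1 in over-tAPX, and 2611 and 1575 in flu over-tAPX. AT1G05575 read 7.01 and 44.6 in WT Col, 2725 and 1719 in flu, 51.7 and 25.9 in over-tAPX, and 3581 and 952 in flu over-tAPX. Both had responses above 5 in each background, 5.62 and 5.91 for AT5G14730 and 5.87 and 5.13 for AT1G05575, and the 2 flu over-tAPX arrays of AT1G05575 were farther apart on the log2 scale than those of any other of the 18. AT1G76600 read 244 and 245 in WT Col, 7801 and 8099 in flu, 254 and 269.8 in over-tAPX, and 10465 and 9505 in flu over-tAPX. AT4G29780 read 115 and 112 in WT Col, 3146 and 3161 in flu, 97.0 and 122 in over-tAPX, and 4862 and 4465 in flu over-tAPX. Replicates lay close together in both genes, and in each the flu arrays were below the flu over-tAPX arrays without overlap.

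AR781 read 168 and 213 in WT Col, 3820.2 and 5396 in flu, 174 and 141 in over-tAPX, and 5863 and 6424 in flu over-tAPX. AT3G43250 read 8.76 and 7.80 in WT Col, 631 and 496 in flu, 12.7 and 4.44 in over-tAPX, and 1218 and 663 in flu over-tAPX. In both genes the flu over-tAPX arrays were above the flu arrays, in AT3G43250 by a narrow margin for the dimmer one. AT1G69890 read 29.3 and 52.7 in WT Col, 1889 and 1769 in flu, 126 and 142 in over-tAPX, and 2777 and 2579 in flu over-tAPX. Here both lines with the transgene lay above their counterparts without it, with no overlap in either pair. AT4G01870 averaged 674 ± 321 in WT Col, 16025 ± 262 in flu, 652 ± 124 in over-tAPX and 20161 ± 1483 in flu over-tAPX. Its signal in flu was a response of 4.62 against WT Col and of 4.93 in the over-tAPX background.

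There was no gap in the values at the threshold of 4. Just inside, the smaller of both responses was 4.01 for GRX480, 4.07 for AT2G32020, 4.16 for AT1G66090 and 4.17 for AT1G69890. Just outside, it was 3.99 for AT3G04640, 3.98 for AT3G48650, 3.97 for AT2G04050 and 3.96 for AT2G21640. With a pseudocount of 1 in place of 16, which shrinks dim genes less, 42 genes qualified, among them all 18. With a pseudocount of 64, 12 of the 18 qualified, and on arrays scaled on their poly-A controls 14 did. In the latter case GRX480 (3.36), AT1G69890 (3.52), AT3G23550 (3.63) and AT2G32020 (3.70) fell short in the over-tAPX background.

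**Figure D2:**
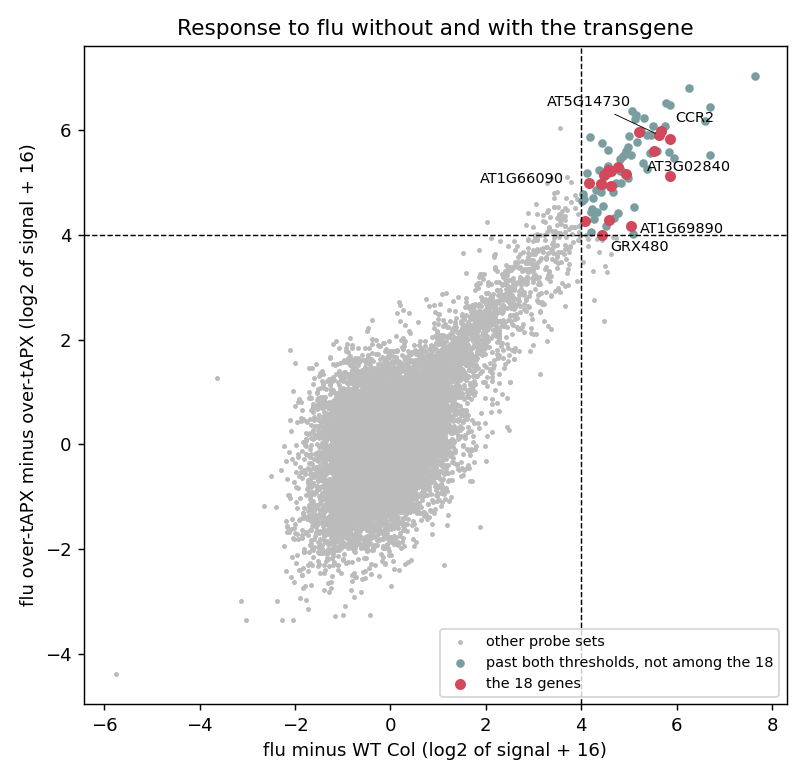
Response to flu in the WT Col background (horizontal) and in the over-tAPX background (vertical) for every probe set that is not a control, as differences of line means of log2(signal + 16). Dashed lines mark the threshold of 4, and the 18 genes (red) lie among the 81 probe sets past both lines.

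Over-tAPX against WT Col asks whether the overexpressor by itself moved these genes in plants with a functional FLU gene. The choice of genes set no threshold on this difference, but the means of both lines entered it, so the comparison is not independent of the choice. None of the 18 passed an adjusted p of 0.05 in limma, where 1 of 14947 tested probe sets did (0.00669%), that of TAPX. At an unadjusted p under 0.05 there were 4 of the 18 genes, against 578 of all tested (3.87%). All 4 were among the 10 genes that lay above the 40th percentile on at least 1 array of plants with functional FLU. In these 10 genes the differences ran from −0.59 to 1.43, with 5 above 0 and 5 below. The other 8 genes lay under that percentile on all 4 arrays compared here, so their differences, from −0.33 to 0.51, set background-level readings against each other. AT1G69890 stood highest at 1.43 ± 0.23 (SE, 2 arrays per line), which had an unadjusted p of 8.82e-05 and an adjusted p of 0.33. Its WT Col readings, 29.3 and 52.7, lay under the 40th percentile of their arrays (93.1 and 85.7), and only its over-tAPX readings lay above it. This difference too is therefore measured from background-level readings. Over 16 alternatives its difference ranged from 0.92 to 1.74 and its adjusted p from 0.0643, with arrays scaled on their poly-A spike-in controls, to 1.00. AT3G23550 was 0.51 ± 0.19 higher in over-tAPX, AT4G39670 lay at −0.59 ± 0.20 and AT1G66090 at −0.45 ± 0.20, each with an adjusted p of 0.98. Both over-tAPX arrays exceeded both WT Col arrays in 4 of 18 genes (AT3G23550, AT1G76600, AT1G69890 and GRX480), where 16.7% of all tested probe sets did so. The reverse held for 2, AT4G39670 and AT1G66090, where it held for 26.7% of all tested.

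In plants without FLU, flu over-tAPX against flu, where all 18 genes were bright but the means of both lines had again entered the choice, 0 of the 18 genes passed in limma (1 of 14947 tested probe sets did, 0.00669%), and 2 had an unadjusted p under 0.05 against 826 of all tested (5.53%). As deposited, 15 of the 18 differences were above 0 (50.3% of all tested), with a median of 0.36 against 0.0013 over all tested probe sets. Both flu over-tAPX arrays exceeded both flu arrays in 11 genes, namely CCR2, AT3G02840, AT5G14730, AT1G76600, AT4G29780, AT3G43250, AR781, AT4G01870, AT1G69890, AT1G66090 and AT3G23550, where 16.4% of all tested probe sets did so, and in 0 genes was the order reversed (13.1% of all tested). In AT5G14730 the margin was nil in practice, 1575.4 against 1574.7. The largest by moderated t were AT4G29780 at 0.56 ± 0.18 (adjusted p 0.87), and AT1G69890 at 0.55 ± 0.23, AT1G76600 at 0.33 ± 0.15 and AR781 at 0.43 ± 0.22 (adjusted p 0.879 each).

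The sign of these differences depended on the scaling of the arrays. Poly-A controls are bacterial transcripts with an added tail that can be mixed into the RNA before labelling. They were brighter on the flu over-tAPX arrays than on the others, and scaling on them lowered the median of all tested probe sets in this comparison from 0.0013 to −0.51. The median of the 18 genes then fell to −0.19, with 3 above 0 (6.82% of all tested) and 15 below. Neither scaling had a gene of the set past the threshold. The median of the 18 genes lay 0.36 above that of all tested probe sets as deposited and 0.33 above it on the poly-A scale, a distance that 1 factor per array can hardly change. Without overlap, 0 genes were then higher in flu over-tAPX (0.937% of all tested) and 6 were lower (58.9% of all tested), AT4G39670, AT3G23550, AT1G76600, GRX480, AT2G32020 and AT2G22880. Which scaling is nearer to the amounts of RNA in the leaves was not tested.

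**Figure D3:**
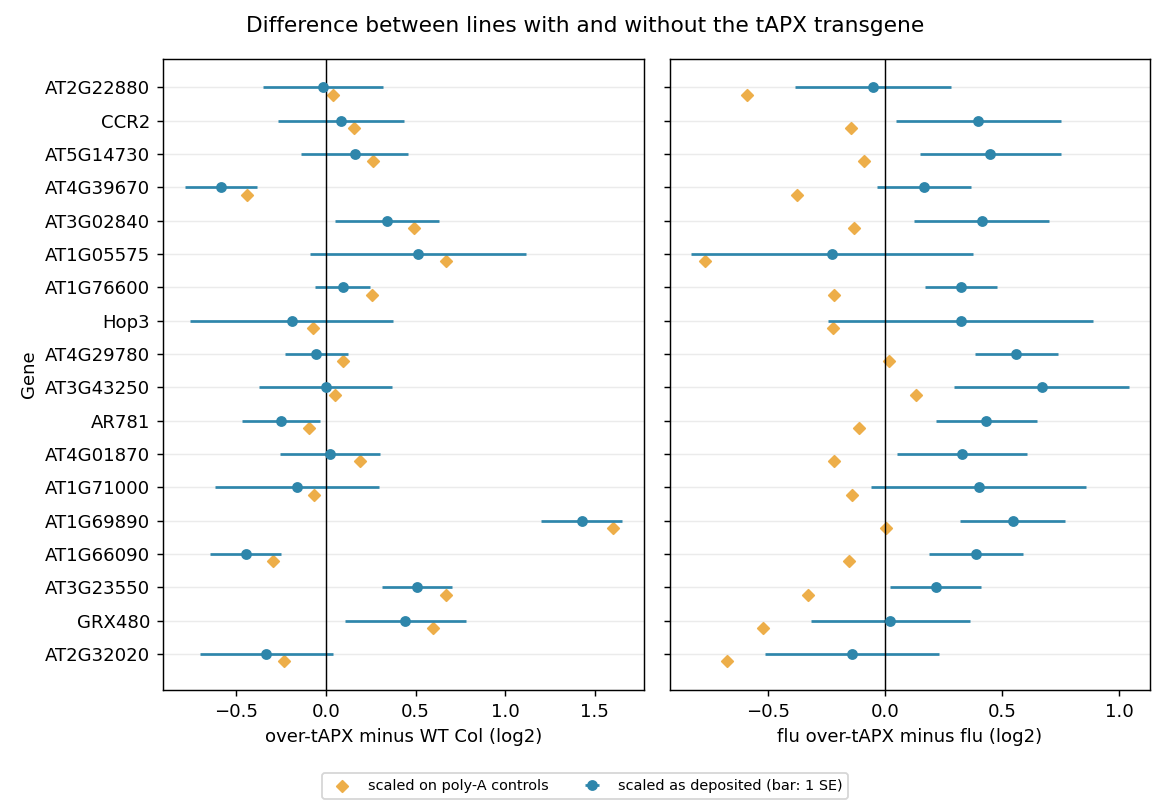
Difference in log2(signal + 16) between lines with and without the transgene for each of the 18 genes, in plants with functional FLU (left) and in flu plants (right). Circles with bars give the limma estimate ± 1 SE with the deposited scaling and diamonds the value with arrays scaled on poly-A controls. The latter puts 15 of 18 genes in flu plants at negative values, where 6.82% of all tested probe sets stay above 0.

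The interaction is the response to flu in the over-tAPX background minus that in the WT Col background. For the 18 genes it is the difference of the same 2 values that chose them, so it is given as a description with no test. Over all tested probe sets none passed in limma (0 of 14947, 0.0%), while 1031 (6.90%) had an unadjusted p under 0.05. As deposited, AT1G66090 had the largest at 0.84 ± 0.28, followed by AT4G39670 at 0.76 ± 0.28, AR781 at 0.69 ± 0.31, AT3G43250 at 0.67 ± 0.53 and AT4G29780 at 0.61 ± 0.25. AT1G69890 had the lowest at −0.88 ± 0.32, where its response against WT Col is measured from background-level readings. On the poly-A scale, which moved the median of all tested probe sets from 0.061 to −0.62, the sign turned in 10 of the 18 genes and AT1G66090 stood at 0.14. AT1G69890 stayed below 0 under all 16 alternatives, from −1.60 on the poly-A scale to −0.39.

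Averaged over both backgrounds, the difference between lines with and without the transgene was past the threshold in none of the 18 genes. In limma 0.00669% of all tested passed, and 2 of the 18 genes had an unadjusted p under 0.05, against 478 of all tested (3.20%). Its sign turned in 5 of the 18 genes on the poly-A scale. AT1G69890 was highest at 0.99 ± 0.16 with an adjusted p of 0.761. The means of all 4 lines had entered the choice of genes, so this comparison is not independent of it. For the 8 genes under the 40th percentile on all 4 arrays with functional FLU, the part from these arrays sets background-level readings against each other. In AT1G69890 the WT Col readings in that part were at background level too.

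The genes also varied between the 2 arrays of a line. In flu over-tAPX 15 of the 18 read higher on replicate 1 than on replicate 2, with differences from −0.18 to 1.89 (AT1G05575) and a median of 0.18 log2 units, where the median over all tested probe sets was −0.092. In flu 10 of the 18 did so, with differences from −0.50 (AR781) to 1.03 (Hop3) and a median of 0.14. On the log2(signal + 16) scale the gap reached 1 unit for Hop3 in flu and for AT1G05575 and GRX480 in flu over-tAPX, and AT1G71000 in flu was just short of it at 0.99. The same 10 genes that were higher on replicate 1 in flu were also higher on it in flu over-tAPX. Across the 18 genes the 2 sets of differences correlated at 0.65, and across all tested probe sets at 0.35. Genes share their arrays and are not independent, so both values only describe these arrays.

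**Figure D4:**
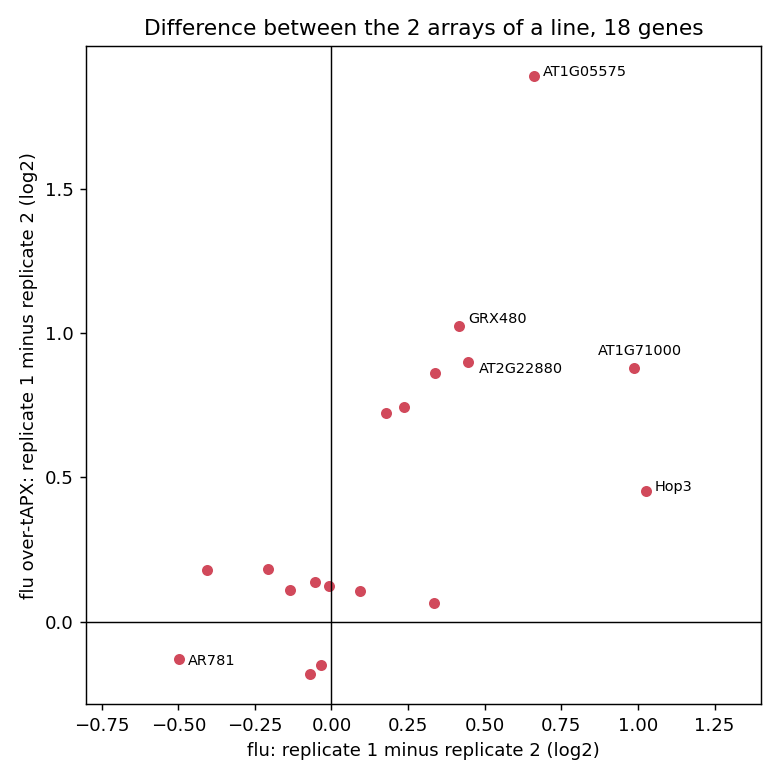
Replicate 1 minus replicate 2 in flu (horizontal) and in flu over-tAPX (vertical) for the 18 genes, in log2 units. AT1G05575 at the top differed by 1.89 in flu over-tAPX, and 10 genes lie above 0 on both axes.

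Related genes did not all share the response. Of all tested probe sets 23.9% were called in flu against WT Col and 33.5% in flu over-tAPX against over-tAPX, in either direction. The relatives below were named from general knowledge after values of these arrays had been seen, and were kept where a tested probe set named them. Among the HSP70-HSP90 organizing proteins, Hop2 averaged 1738 ± 217 in WT Col and 3423 ± 1183 in flu, 0.93 ± 0.24 higher (limma, adjusted p 0.0179), and was 1.15 ± 0.24 higher in the over-tAPX background (adjusted p 0.00428). The first of these calls was lost without either WT Col array, without flu replicate 1 or without the variance trend, and the second on the poly-A scale (0.48). Hop1 averaged 594 ± 54.5 in WT Col and 425 ± 2.71 in flu, with values of −0.46 (adjusted p 0.106) and −0.35 (adjusted p 0.191). The gene next to AT2G32020, AT2G32030, encodes another acetyltransferase of that family and rose from 73.7 ± 8.58 to 1252 ± 137, by 3.82 ± 0.38, and by 3.86 ± 0.38 in the over-tAPX background (adjusted p 6.33e-05 and 4e-05). A second MATE transporter, AT2G04050, rose from 40.7 ± 38.6 to 764 ± 21.9, by 3.97 ± 0.46 (adjusted p 0.000171), and by 4.18 ± 0.46 in the over-tAPX background (adjusted p 8.39e-05).

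Other relatives responded less than the members. The rule sets this in part, since a relative past both thresholds would itself be a member or left out by name. AT5G12010, the relative of AT4G29780, rose by 2.10 ± 0.15 and 2.71 ± 0.15 (limma, adjusted p 7.66e-06 and 9.29e-07), and AT1G21010, the relative of AT1G76600, by 2.16 ± 0.28 and 2.09 ± 0.28 (adjusted p 0.000356 and 0.000313). Of the VQ-motif genes, AT1G78410 rose by 1.91 ± 0.29 and 1.70 ± 0.29 (adjusted p 0.00103 and 0.00138), while AT1G80450 had 1.11 and 1.60 (adjusted p 0.242 and 0.0825). Among genes with a TIR domain, AT1G72940 rose by 2.56 ± 0.26 and 3.01 ± 0.26 (adjusted p 7.03e-05 and 1.55e-05), and AT5G45000 had 0.24 and 0.63 (adjusted p 0.664 and 0.196). AT1G72950, also with a TIR domain, had −0.49 against WT Col (adjusted p 0.534) and 2.17 ± 0.53 in the over-tAPX background (adjusted p 0.0104), a call that was lost without over-tAPX replicate 2 (1.50) or flu over-tAPX replicate 2 (1.93). AT4G33040, a glutaredoxin of the CC type like GRX480, had 0.048 and 0.023 (adjusted p 0.915 and 0.96). The differences between members and relatives were not tested, since the members were chosen for their response.

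**Figure D5:**
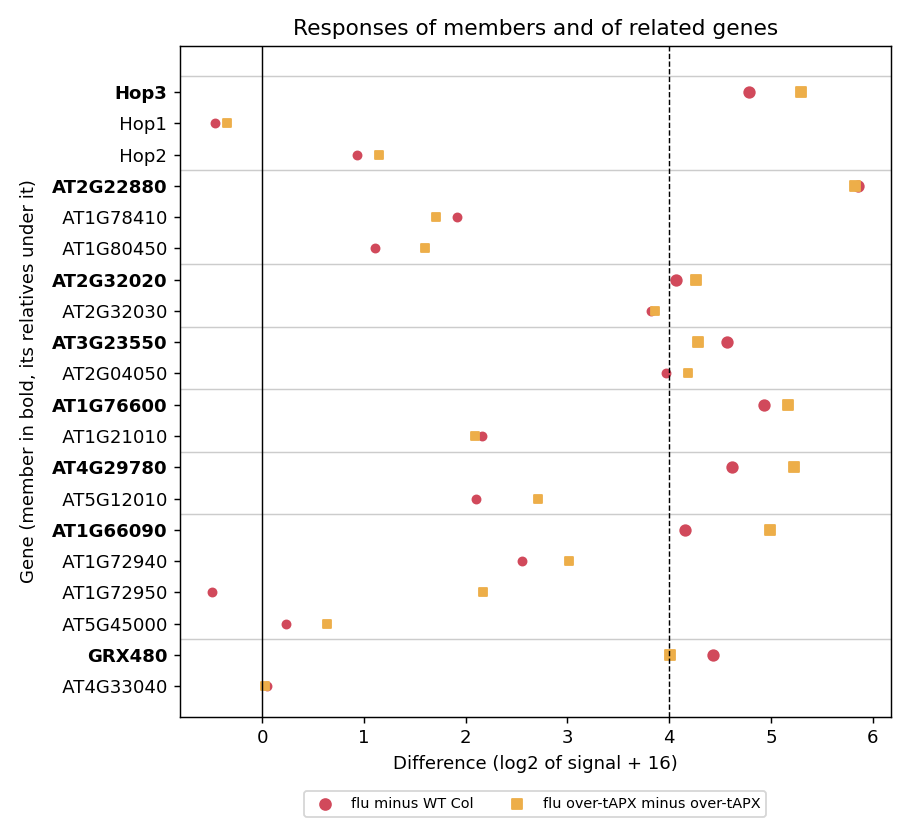
Response to flu in the WT Col background (circles) and in the over-tAPX background (squares) for 8 members (bold) and their 12 relatives, as differences of log2(signal + 16). The dashed line marks the threshold of 4 that the members had to pass in both, which AT2G04050 passed in one background, at 4.18, and missed in the other, at 3.97.

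The 18 genes lay on all 5 chromosomes, 7 on chromosome 1, 3 on each of chromosomes 2 and 3, 4 on chromosome 4 and 1 on chromosome 5. Of the 36 protein-coding genes directly beside a member in the TAIR10.1 annotation, 12 that are no members were tested. In flu against WT Col 3 of these 12 were higher (11.4% of all tested probe sets) and 0 were lower (12.5% of all tested). In the over-tAPX background 0 were lower (18.5% of all tested) and again the same 3 were higher (15.0% of all tested). They were AT2G32030, AT1G76590 beside AT1G76600 (2.56 ± 0.24 and 3.01 ± 0.24, adjusted p 4.21e-05 and 9.47e-06 in limma) and AT1G66080 beside AT1G66090 (2.22 ± 0.41 and 2.36 ± 0.41, adjusted p 0.00347 and 0.00157). The other 9 passed in neither background, and the median of the 12 was 0.11 and 0.44, against −0.20 and −0.16 over all tested probe sets.

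The pathways looked at were sparsely measured by probe sets with 1 gene, and only the list for lignin synthesis held a member, CCR2. Of 26 genes of lignin synthesis, CCR2 and HCT were measured, and HCT, an acyltransferase of the same route, averaged 3858 ± 33.5 in WT Col and 4006 ± 321 in flu, with differences of 0.052 and 0.11 (limma, adjusted p 0.827 and 0.59). Of 13 genes of mitochondrial stress and alternative respiration 3 were tested. NDB2, an external NADH dehydrogenase of mitochondria, rose by 2.45 ± 0.16 and 2.76 ± 0.16 (adjusted p 2.97e-06 and 8.95e-07), and AT2G21640, a marker of oxidative stress, by 4.66 ± 0.51 and 3.96 ± 0.51 (adjusted p 0.000115 and 0.000251). AT5G09570, the third, had 0.23 and 0.86 (adjusted p 0.681 and 0.0959). Of 3 tested zinc finger repressors of the C2H2 type, STZ, which had met both thresholds and was left out by name, had responses of 4.81 and 5.23, AT3G53600 rose by 3.38 ± 0.45 and 3.53 ± 0.45 (adjusted p 0.000477 and 0.00025), and AT2G28200 had −0.63 and −0.70 (adjusted p 0.177 and 0.113). SAG101, a partner of EDS1 in immunity downstream of TIR proteins, had 0.68 in flu against WT Col (adjusted p 0.112) and rose by 1.52 ± 0.28 in the over-tAPX background (adjusted p 0.00262). AT2G04400, an enzyme of tryptophan synthesis, rose in both, by 1.51 ± 0.17 and 1.89 ± 0.17 (adjusted p 0.000171 and 2.55e-05). No gene of the lists for ethylene synthesis, danger peptides, jasmonate repressors and low oxygen was measured this way.

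Leaf mesophyll genes were bright on all arrays, with line means of RCA between 28056 and 30477, and of 3 measured ones LHCB4.2 and LHCB4.3 fell in both responses to flu, by 0.75 ± 0.15 and 0.94 ± 0.15 for the first and by 0.77 ± 0.22 and 1.73 ± 0.22 for the second (limma, adjusted p 0.00626, 0.0011, 0.0295 and 0.000225). Their part in the rise of the 18 genes was not tested. Of the other cell types of a leaf, 2 guard cell genes (AT1G22690 and FMA) and 1 phloem gene (SWEET11) were measured, and none of the 3 passed in either response to flu, with adjusted p between 0.0599 and 0.938. The lists for xylem, epidermis and flower had no measured gene.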

How the data were processed

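RNA of 8 ATH1 arrays (4 lines, 2 pools each) was measured. The authors deposited a linear signal intensity per probe set, made with MAS5 per the submitters' processing notes (version: not given in the sources used here). The middle 96% of signals averaged 500.0 on every array, so a broad rise lowers other signals. Lines and replicate numbers came from the titles. Values became log2(signal + 16), which understates changes of dim genes. The 64 controls were left out, and probe sets above the 40th percentile of their array on at least 2 arrays were tested (14947 of 22810). The 18 genes were chosen without that filter, and all 18 passed it. Of these, 8 passed through the flu arrays alone, and Hop3, above on 1 array with functional FLU, needed the flu arrays too. The rule had chosen high signals on the flu arrays, so passing is no separate check. One limma 3.58.1 model (R 4.3.3) of 4 line means with eBayes(trend=TRUE) gave two-sided p-values, adjusted by Benjamini-Hochberg over all tested probe sets (threshold 0.05). The fit was also run on simulated data with the same SD for all probe sets, no filter and no difference in array scaling. That run did not check these steps. The number of arrays limits the precision.

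The members, gene lists and tests were chosen with earlier results of these data known. All members are named. Values on every array are given for CCR2, AT3G02840, AT5G14730, the 6 largest mean responses, and the members largest by moderated t (6 in the interaction, 4 in each transgene comparison). The remaining 5 are given by line means. Gene names came from the platform table, updated to TAIR10.1 symbols. It names no gene for 8730 probe sets besides the controls. Alternatives were other pseudocounts, filters, scaling (quantile, 24 poly-A control probe sets), no variance trend, a replicate block and each array left out.

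Replicate numbers were not used to pair the samples in the main model. Deviations of same-numbered arrays correlated between −0.08 and 0.35 over the 6 pairs of lines, highest for flu with flu over-tAPX. Whether same-numbered pools came from the same experiments was not tested.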

Additional observations from a re-analysis of the deposited data

Results flagged for a closer look

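AT1G66090, the TIR-NBS gene, was picked out because its transgene differences had opposite signs in the presence and absence of functional FLU. Both over-tAPX arrays lay below both WT Col arrays (−0.45 ± 0.20), and both flu over-tAPX arrays lay above both flu arrays. The difference between these, the interaction, was 0.84 ± 0.28. It was not tested apart from the values that brought it up. On the poly-A scale both transgene differences were negative, −0.30 and −0.16, so the opposite signs were gone, and the interaction was 0.14. Each of the 18 genes was searched for such a pattern, and as deposited opposite signs were not particular to AT1G66090. With functional FLU and without it, the differences were −0.59 and 0.17 in AT4G39670, −0.25 and 0.43 in AR781, and −0.054 and 0.56 in AT4G29780. They were −0.19 and 0.32 in Hop3, −0.16 and 0.40 in AT1G71000, and −0.0027 and 0.67 in AT3G43250. AT1G05575 had the reverse order, 0.51 and −0.22. The remaining genes, such as AT1G69890 (1.43 and 0.55), had the same sign in both.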

How the results depend on the processing

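Number of members: 42 with a pseudocount of 1, 12 with one of 64, 14 on the poly-A scale, 17 after quantile normalization, 94 with both responses at least 3 and 6 with both at least 5. Leaving out 1 array at a time gave 16 to 25 members. Probe sets called in flu against WT Col numbered 3570, and 2335 on the poly-A scale and 1854 to 4678 with 1 array left out. In flu over-tAPX against over-tAPX they numbered 5014, and 8850 on the poly-A scale and 2826 to 5356 with 1 array left out. Over-tAPX against WT Col had 1, and 3 on the poly-A scale. Flu over-tAPX against flu had 1, with 16 on the poly-A scale and 1 to 71 with 1 array left out, the 71 without flu over-tAPX replicate 1. The interaction had 0, with 514 on the poly-A scale and 0 to 185 with 1 array left out, the 185 without the same array. None of the 18 genes was called in these leave-one-out fits of the transgene comparisons. Of the 514 interaction calls on the poly-A scale, 1 was a member, AT1G69890 at −1.60, which the same responses had chosen. On that scale the median of the members was −0.19 in flu over-tAPX against flu and −0.38 in the interaction. For the members the interaction is a description without a test. With 1 array left out these medians ranged from 0.21 to 0.48 and from 0.14 to 0.49. The causes were not tested.

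With the replicate number as a block, over-tAPX against WT Col had 2 probe sets called, flu against WT Col 3963 and flu over-tAPX against over-tAPX 5521, and the block changed no call of a member. On the poly-A scale signs turned in 12 of the 18 genes in flu over-tAPX against flu, AT1G76600 (−0.22) and AR781 (−0.11) among them, in 10 in the interaction, AT4G29780 (−0.081) and AR781 (−0.016) among them, and for AT4G33040 (−0.58) and HCT (−0.56) in flu over-tAPX against over-tAPX. With 1 array left out, values in flu against WT Col ranged from −0.094 to 0.57 for AT5G45000, from −0.077 to 0.17 for AT4G33040 and from −0.029 to 0.13 for HCT, and in flu over-tAPX against over-tAPX from −0.20 to 0.25 for AT4G33040. AT1G80450 and AT5G09570 passed in the over-tAPX background without the variance trend (adjusted p 0.0477 and 0.028, limma). Hop1 (−0.99) and AT2G28200 (−1.31) passed there on the poly-A scale. Closest relatives by protein sequence and promoter motifs were not run, because no sequence table was used here. The relatives, neighbouring genes and replicate differences, and the split of members by signal without flu, were chosen after seeing the data. Signals under the 40th percentile of an array, as 8 members had without flu, limit the precision of their fold changes, and with 2 pools per line small differences could not be resolved.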
